A study of Homo sapiens with 10 samples.

Results

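Heme oxygenase 1 (HMOX1) and 8 other genes that the transcription factor NRF2 is known to turn on were followed in MDA-MB-468 and ZR75-1 breast cancer cells exposed to PKC412. The genes are HMOX1, NQO1, GCLM, GCLC, TXNRD1, SRXN1, SLC7A11, FTL and FTH1, 9 of the 23426 gene symbols in each table, chosen by name. The choice followed from the level of HMOX1 in ZR75-1, which was already known, so the values of HMOX1 in every comparison that uses ZR75-1 are given as a description with no test. Both are established lines, MDA-MB-468 from a basal-like, triple-negative tumor and ZR75-1 from a luminal one. Cells of each line were held for 6 h in the solvent DMSO (2 samples) or in 1 μM PKC412 (3 samples), also called midostaurin, a derivative of staurosporine that inhibits many kinases. No line carried an engineered allele by the labels, and each line stands for 1 tumor, so a difference between them is a difference between these lines. The methods of the study describe treatment in triplicate, and 2 DMSO samples per line were analysed here. The replicates are repeat treatments of 1 cell line, and the p-values measure the spread between these samples.

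NRF2, encoded by NFE2L2, is normally bound by KEAP1 and degraded. Reactive compounds modify KEAP1, and NRF2 then pairs with small MAF proteins on antioxidant response elements of its targets, while BACH1, a repressor that heme removes, occupies the same elements and is best known for holding HMOX1 down. The targets supply glutathione (GCLC, GCLM, SLC7A11), reduce thiols and quinones (TXNRD1, SRXN1, NQO1), break down heme (HMOX1) and store the iron that heme releases (FTH1, FTL).

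The core of the antioxidant response element, TGACNNNGC, was sought on both strands in the 250 bases before the start sites that RefSeq gives (GRCh38.p14). The FPKM files carry no coordinates. Of the 9 genes, 6 had a window in that table (7 windows, since TXNRD1 has 2 starts), and HMOX1, SLC7A11 and FTH1 had no entry. A match was in 3 of the 7 windows, against 3830 of 35116 windows of all genes (10.91%). The windows of GCLM, GCLC and TXNRD1 are shown because GCLM and GCLC encode the partners of one enzyme, of which only GCLM holds the letters in its window, and because both start windows of TXNRD1 hold them. Each window is written 5′ to 3′ on the strand of the gene, ends at the base before the start site, and has the match in capitals. The window of GCLM lies at chr1:93909431-93909680 on the minus strand, that of GCLC at chr6:53545102-53545351 on the minus strand, and those of TXNRD1 at chr12:104215529-104215778 and chr12:104286782-104287031 on the plus strand.
GCLM: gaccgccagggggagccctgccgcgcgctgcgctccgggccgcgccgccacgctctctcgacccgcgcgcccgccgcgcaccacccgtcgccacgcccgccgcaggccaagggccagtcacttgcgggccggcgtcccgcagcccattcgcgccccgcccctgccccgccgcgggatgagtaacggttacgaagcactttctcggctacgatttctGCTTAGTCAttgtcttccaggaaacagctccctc
GCLC: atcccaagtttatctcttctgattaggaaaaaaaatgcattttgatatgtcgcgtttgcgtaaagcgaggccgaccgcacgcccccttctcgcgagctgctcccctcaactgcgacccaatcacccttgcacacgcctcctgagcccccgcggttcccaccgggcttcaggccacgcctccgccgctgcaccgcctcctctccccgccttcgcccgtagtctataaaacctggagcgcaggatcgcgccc
TXNRD1 start 1: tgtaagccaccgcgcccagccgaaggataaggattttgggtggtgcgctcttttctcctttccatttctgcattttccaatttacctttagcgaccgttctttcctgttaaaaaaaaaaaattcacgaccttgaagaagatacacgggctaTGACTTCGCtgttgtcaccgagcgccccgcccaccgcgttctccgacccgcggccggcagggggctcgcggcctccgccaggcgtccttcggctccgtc
TXNRD1 start 2: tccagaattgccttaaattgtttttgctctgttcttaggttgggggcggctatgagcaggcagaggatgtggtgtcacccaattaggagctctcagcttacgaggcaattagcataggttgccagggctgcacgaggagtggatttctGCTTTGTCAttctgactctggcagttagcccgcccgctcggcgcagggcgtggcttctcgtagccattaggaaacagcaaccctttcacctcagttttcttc
The match of GCLM, TGACTAAGC, was read on the opposite strand, 34 to 26 bases before the start. That of TXNRD1 start 1, TGACTTCGC, was on the strand of the gene, 99 to 91 bases before the start, and that of start 2, TGACAAAGC, on the opposite strand, 102 to 94 bases before it. The windows of GCLC, NQO1, FTL and SRXN1 held no match. Only these 250 bases were searched, so a gene without a match here may have an element farther from its start. A match is a string of letters and no binding was measured.

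The levels are FPKM (fragment counts scaled by the length of the transcript and the total mapped in the sample). No read counts can be recovered from them, the depth is unknown, and the spread between replicates is the only measure of precision. FPKM summed to between 599228 and 835069 per sample. In each line every PKC412 sample had a lower sum than both DMSO samples, so the sums separate the groups in both lines. The labelled lines were checked with markers: 6 of 8 basal markers were higher in every MDA-MB-468 sample than in any ZR75-1 sample (not CDH3 and LAMB3), and 7 of 8 luminal markers were higher in every ZR75-1 sample (not KRT19). A further property of the samples touches several of the 9 genes. The slope of a gene's log2 deviation from its line mean on GC content, per 10 percentage points of GC, was 0.373 and 0.0573 in the DMSO samples of MDA-MB-468 and -0.287, -0.0240 and -0.119 in its PKC412 samples, so it separates these groups. In ZR75-1 it was 0.314 and -0.192 in DMSO and -0.107, 0.342 and -0.356 in PKC412, where the groups overlap. Tests used limma on log2(FPKM + 1) over 16071 genes, and adjusted p-values are Benjamini-Hochberg values over those genes. The added 1 makes the fold changes of low genes smaller than the ratios of FPKM.

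**Figure D1:**
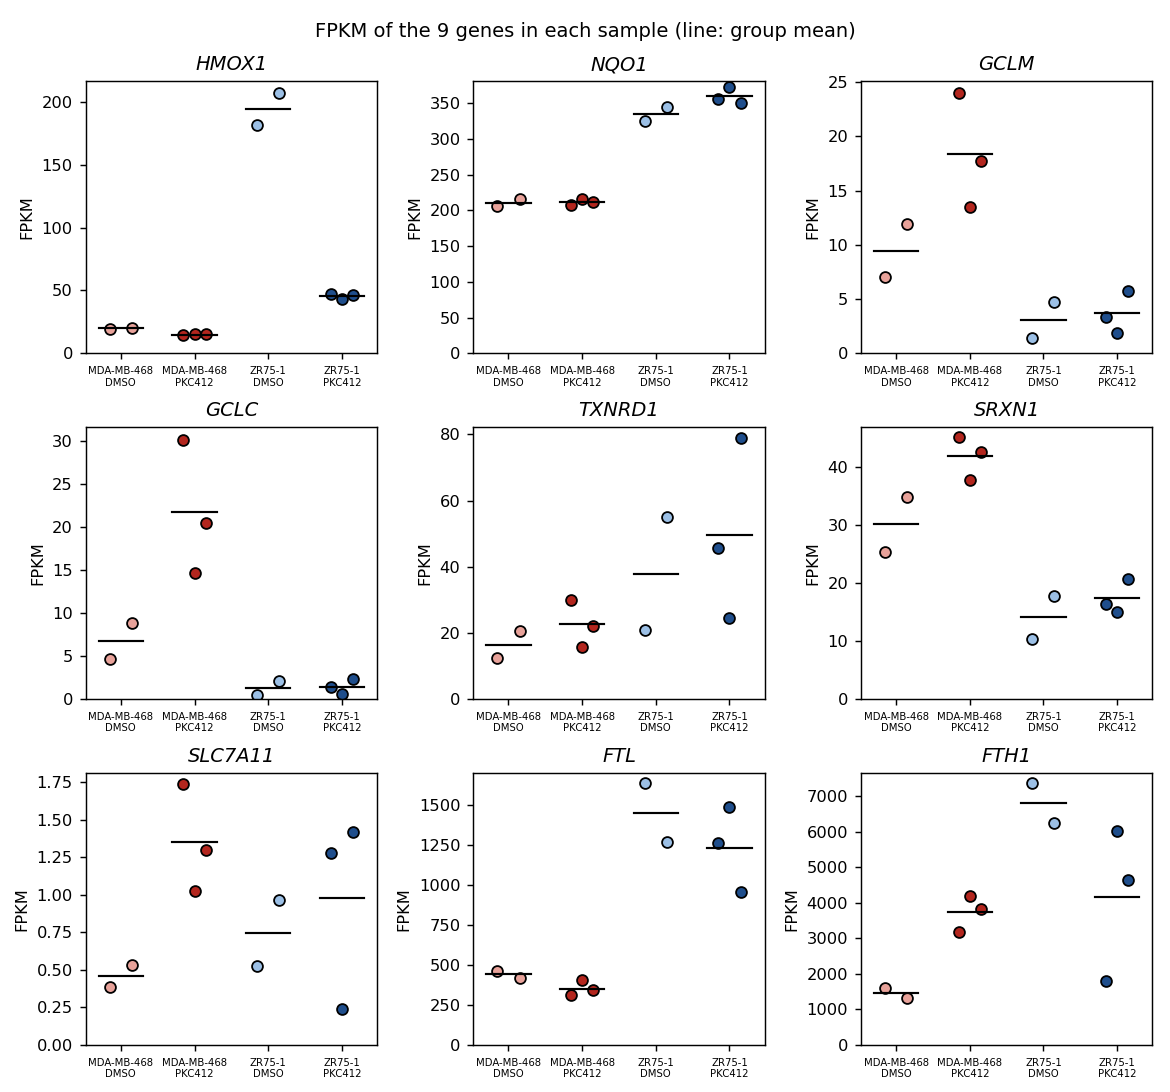
FPKM (y axes, each from 0) of the 9 genes in the 10 samples, grouped by line and agent (x axes). Points are samples and bars are group means. HMOX1 lies between 181.5 and 206.9 in the DMSO samples of ZR75-1 and between 43.5 and 47.1 in its PKC412 samples.

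HMOX1, which opens the heme ring and releases iron, carbon monoxide and biliverdin, was lower after PKC412 in both lines. In ZR75-1 it measured 181.5 and 206.9 FPKM in DMSO and 47.1, 43.5 and 46.4 in PKC412. The groups did not overlap, and the means were 194 ± 17.97 (SD, n = 2) and 45.7 ± 1.91 (SD, n = 3), a 4.25-fold lower level that is -2.06 on the log2(FPKM + 1) scale. In MDA-MB-468 it measured 19.7 and 20.1 FPKM in DMSO and 14.7, 15.1 and 14.98 in PKC412. All 3 treated samples were below both controls, by a small amount, with a mean ratio of 0.750. The limma change was -0.39 (SE 0.0929, 95% interval -0.61 to -0.18) with an adjusted p of 0.112, past the threshold only after median-ratio rescaling within each line (-0.54, adjusted p 0.0467). The difference between the responses, MDA-MB-468 minus ZR75-1, was 1.67. In RNA from whole cultures, less HMOX1 RNA per cell and fewer cells with HMOX1 cannot be told apart.

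The 3 treated ZR75-1 samples had GC slopes from -0.356 to 0.342 and HMOX1 levels from 43.5 to 47.1 FPKM. After FPKM were adjusted for GC content and transcript length in each sample, the change was -2.09 in ZR75-1 and -0.26 in MDA-MB-468. HMOX2, the constitutive heme oxygenase, was looked at after its values were seen. It measured 67.2 and 59.0 FPKM in DMSO and 64.9, 67.3 and 53.2 in PKC412 in ZR75-1, groups that overlap. In MDA-MB-468 its levels were 0.33 to 0.64 FPKM over all 5 samples. The line difference in DMSO was -5.36 (SE 0.162, MDA-MB-468 minus ZR75-1). It is given as a description, since HMOX2 was picked by its values, and 42.4% of all genes passed the threshold in this comparison.

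In ZR75-1, where the low HMOX1 level after PKC412 was described without a test, none of the other 8 genes was called. None (0 of 8) passed the threshold in limma, where 0.946% of all genes did (0.747% as higher and 0.199% as lower), and the adjusted p-values ran from 0.528 to 0.982. At an unadjusted p under 0.05 the count was also 0 of 8, against 11.16% of all genes. The median log2 change of the 8 was 0.12, against 0.07 over all genes tested. Of the 8, only FTH1 had every treated sample below every control, only NQO1 had every treated sample above, and 6 overlapped. Over all genes these shares were 6.98% and 14.8%.

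In MDA-MB-468 none (0 of 9) passed the threshold, against 1.26% of all genes (0.691% higher and 0.566% lower). At an unadjusted p under 0.05 there were 4 of 9 (HMOX1 lower, GCLC, SLC7A11 and FTH1 higher), against 16.4% of all genes. Every treated sample was above every control for 5 of the 9 (GCLM, GCLC, SRXN1, SLC7A11 and FTH1), against 39.6% of all genes, and below for HMOX1 and FTL, against 16.3%. The median change of the 9 was 0.47 and that of all genes 0.11. The difference between the responses was past the threshold for 0 of the 8 genes other than HMOX1 (0.268% of all genes, 0.0684% as higher in MDA-MB-468 and 0.199% as lower), and at an unadjusted p under 0.05 for FTH1 (7.05% of all genes).

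**Figure D2:**
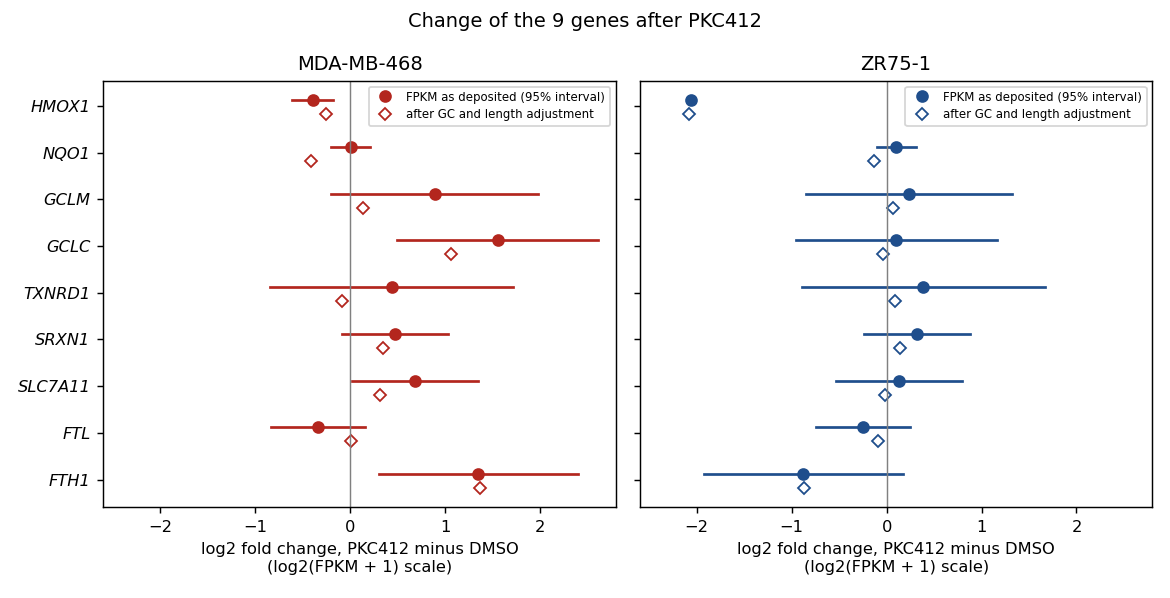
Log2 fold change, PKC412 minus DMSO (x axes), of the 9 genes (y axis) in each line. Filled circles are limma estimates from the deposited FPKM with 95% intervals, with no interval for HMOX1 in ZR75-1, and open diamonds are estimates after adjustment for GC content and transcript length. HMOX1 in ZR75-1 lies at -2.06 and -2.09, and GCLM in MDA-MB-468 moves from 0.89 to 0.14.

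The glutathione genes were higher in the treated MDA-MB-468 samples, without passing the test. GCLC, the catalytic subunit of the ligase that makes γ-glutamylcysteine, measured 4.65 and 8.82 FPKM in DMSO and 30.2, 14.7 and 20.4 in PKC412. The groups did not overlap and the treated samples differed from each other by more than the controls did. The change was 1.55 (SE 0.461, 95% interval 0.49 to 2.62, adjusted p 0.194). GCLM, which encodes the modifier subunit of that ligase, measured 7.02 and 11.9 FPKM in DMSO and 24.0, 13.5 and 17.7 in PKC412. Its lowest treated sample was just above its higher control, and the change was 0.89 (SE 0.473, adjusted p 0.336). SLC7A11, the cystine importer that feeds this pathway, was low throughout, with 0.39 and 0.53 FPKM in DMSO and 1.74, 1.03 and 1.30 in PKC412, a change of 0.68 (SE 0.288, adjusted p 0.299).

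In ZR75-1 the same 3 genes had overlapping groups. GCLC measured 0.52 and 2.13 FPKM in DMSO and 1.41, 0.60 and 2.35 in PKC412. GCLM measured 1.45 and 4.73 FPKM in DMSO and 3.37, 1.90 and 5.78 in PKC412. SLC7A11 measured 0.52 and 0.97 FPKM in DMSO and 1.28, 0.24 and 1.42 in PKC412. For each of these genes the lower control and PKC412 replicate 2 were the 2 lowest samples of the line, and these were the 2 samples with the highest GC slopes, 0.314 and 0.342. The changes were 0.10, 0.23 and 0.13, with adjusted p-values of 0.982, 0.914 and 0.922, and 95% intervals are drawn in the plot of fold changes.

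The levels of these genes moved with the GC slope of the samples in MDA-MB-468 as well. The order of the 5 samples by GCLC or GCLM, from high to low, was the order of their slopes from low to high. GC content is 44.3% for the GCLC transcript, 37.3% for GCLM and 35.4% for SLC7A11, against a median of 50.1% over genes. After adjustment for GC content and length the change in MDA-MB-468 was 1.06 for GCLC (adjusted p 0.0679), 0.14 for GCLM and 0.32 for SLC7A11. Since the slopes also separate the treated from the control samples of this line, a change of these genes by the drug and a change through the slope cannot be told apart.

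**Figure D3:**
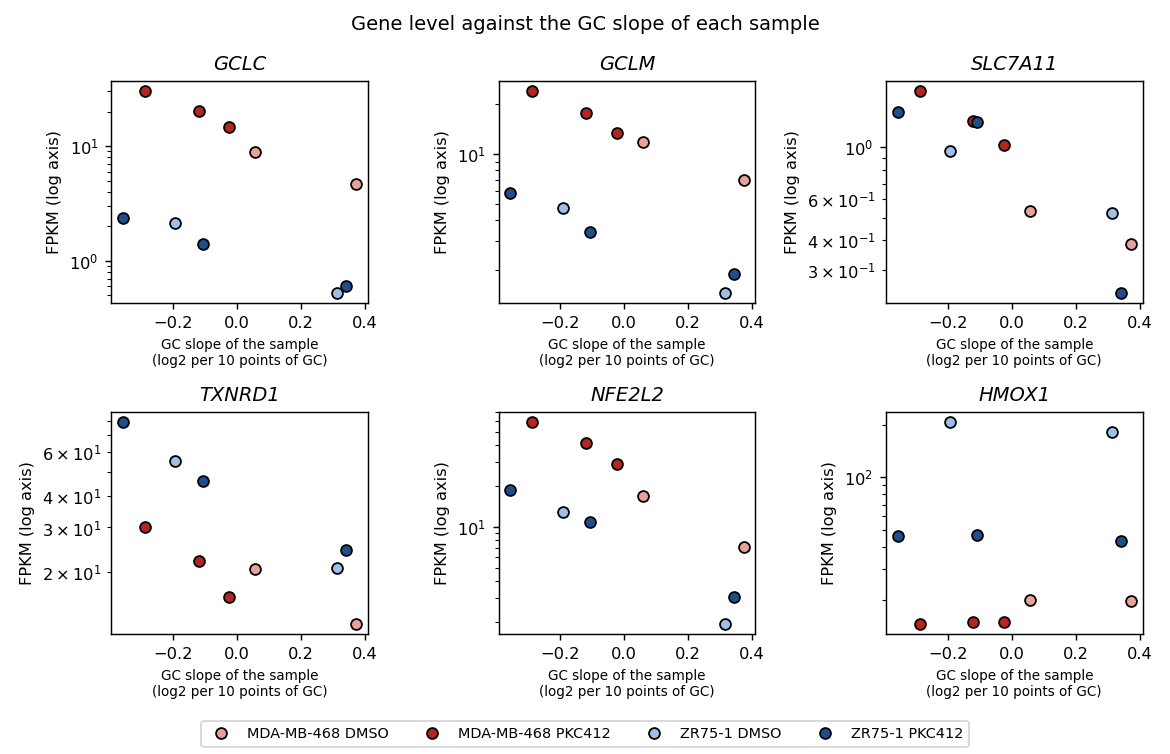
FPKM (log y axes) of 6 genes against the GC slope of each sample (x axes, log2 units per 10 percentage points of GC), by line and agent. GCLC, GCLM, SLC7A11 and NFE2L2 are lowest in the samples with the highest slopes in both lines, while HMOX1 in the treated ZR75-1 samples stays at 43.5 to 47.1 FPKM over slopes from -0.356 to 0.342.

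The thiol and quinone reductases showed no call in either line. TXNRD1, the cytosolic thioredoxin reductase, whose start windows both hold the element's letters, measured 12.4 and 20.5 FPKM in DMSO and 30.1, 15.8 and 22.2 in PKC412 in MDA-MB-468. In ZR75-1 the values were 20.7 and 55.1 FPKM in DMSO and 45.8, 24.4 and 79.0 in PKC412. The groups overlapped in both lines, and the changes were 0.44 (SE 0.556, adjusted p 0.65) and 0.39 (adjusted p 0.865).

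SRXN1, sulfiredoxin, restores overoxidized peroxiredoxins. It measured 25.4 and 34.8 FPKM in DMSO and 45.2, 37.8 and 42.6 in PKC412 in MDA-MB-468, where the groups did not overlap and the change was 0.47 (SE 0.241, adjusted p 0.327). The order of these samples by SRXN1, from high to low, was that of their GC slopes from low to high. The ZR75-1 samples measured 10.3 and 17.8 FPKM in DMSO and 16.3, 15.1 and 20.7 in PKC412, which overlap (change 0.32, adjusted p 0.684). NQO1, a quinone reductase often read as a marker of NRF2 activity, had the narrowest 95% interval of the 9 genes in MDA-MB-468. It measured 206 and 216 FPKM in DMSO and 208, 216 and 212 in PKC412 in MDA-MB-468, a change of 0.01 (SE 0.0885, 95% interval -0.20 to 0.21). In ZR75-1 it measured 326 and 346 FPKM in DMSO and 357, 373 and 351 in PKC412. All treated samples were above the controls there, by a mean ratio of 1.07, with a change of 0.10 (adjusted p 0.73). Its direction was negative in both lines after rescaling by median ratios or adjustment for GC content and length, and the adjustment widened its range in treated ZR75-1 samples to 251 to 470 FPKM.

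The ferritin genes differed from each other. FTL, the light chain, measured 463 and 420 FPKM in DMSO and 309, 404 and 340 in PKC412 in MDA-MB-468. The treated samples were lower without overlap, by -0.34 (SE 0.215, adjusted p 0.388), and after adjustment for GC content and length the change was 0.01. In ZR75-1 the values were 1634 and 1268 FPKM in DMSO and 1259, 1482 and 953 in PKC412, which overlap (change -0.25, adjusted p 0.729). FTH1, the heavy chain with the ferroxidase site, measured 1603 and 1321 FPKM in DMSO and 3191, 4181 and 3837 in PKC412 in MDA-MB-468. The treated samples were 2.56-fold higher in the mean, and the change was 1.35 (SE 0.456, adjusted p 0.241). The ZR75-1 samples measured 7366 and 6252 FPKM in DMSO and 1802, 6016 and 4646 in PKC412. The treated samples were lower, 1 of them far below the other 2, and the change was -0.88 (adjusted p 0.528). Without that sample, PKC412 replicate 1, it was -0.36.

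FTH1 shares its sequence with a pseudogene, FTH1P3, which has a row of its own. In MDA-MB-468 FTH1P3 measured 1620 and 1360 FPKM in DMSO and 510.5, 684 and 610.3 in PKC412, the opposite direction to FTH1. In ZR75-1 it measured 1250 and 996 FPKM in DMSO and 1934, 969 and 725 in PKC412. As a share of FTH1 plus FTH1P3, FTH1 took 49.7% and 49.3% in the DMSO samples of MDA-MB-468 and 48.2% in PKC412 replicate 1 of ZR75-1. It took 85.5% to 86.5% in the other 7 samples, with none between. The low FTH1 values of both lines were thus those of samples with the lower share. With both genes summed, the change was 0.55 in MDA-MB-468 (SE 0.283, adjusted p 0.329) and -0.61 in ZR75-1 (adjusted p 0.474). Both changes kept their direction and were smaller than those of FTH1 alone. The sum adds FPKM, which are scaled by length, and was not weighted by length. The transcripts used here for length have 1229 bases for FTH1 and 584 for FTH1P3. With such lengths, equal FPKM stand for fewer fragments of FTH1P3 than of FTH1. How far this made the changes smaller was not tested. Whether fragments of FTH1 were placed on FTH1P3 was not tested.

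**Figure D4:**
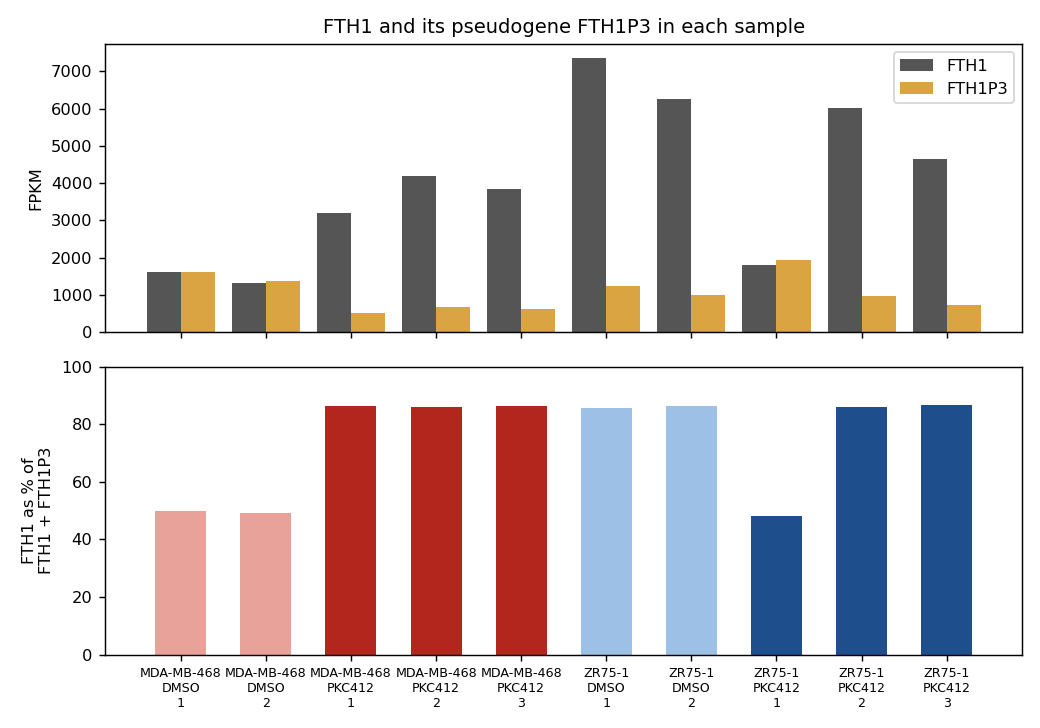
FTH1 and FTH1P3 FPKM in each sample (upper bars, from 0) and FTH1 as a percentage of their sum (lower bars, 0 to 100). The share is 48.2% to 49.7% in both DMSO samples of MDA-MB-468 and in PKC412 replicate 1 of ZR75-1, and 85.5% to 86.5% in the other 7 samples.

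Several of the genes differed between the lines. In DMSO, 5 of the 8 genes other than HMOX1 differed between the lines in limma, where 42.4% of all genes did (26.5% higher in MDA-MB-468 and 15.9% lower). Samples of one line lay wholly above those of the other for 7 of the 8, against 69.6% of all genes. NQO1 was higher in ZR75-1 (-0.67, MDA-MB-468 minus ZR75-1, adjusted p 0.00077), as were FTL (-1.70, adjusted p 0.000584) and FTH1 (-2.22, adjusted p 0.0075). GCLC (1.77, adjusted p 0.0223) and SRXN1 (1.08, adjusted p 0.0114) were higher in MDA-MB-468. HMOX1, given without a test, was 9.77-fold higher in ZR75-1. The count of 5 was 2 without MDA-MB-468 DMSO replicate 2 and 3 without ZR75-1 DMSO replicate 1. NQO1 and FTL kept adjusted p-values of at most 0.00922 and 0.00699 with any 1 sample left out, while the highest was 0.144 for GCLC, 0.0856 for SRXN1 and 0.0509 for FTH1.

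With PKC412 5 of the 8 were again past the threshold, against 58.6% of all genes (37.0% higher in MDA-MB-468 and 21.6% lower). Samples of one line lay wholly above those of the other for 5 of the 8, against 64.4% of all genes. GCLM (2.10, adjusted p 0.0031), GCLC (3.22, adjusted p 0.00025) and SRXN1 (1.23, adjusted p 0.0015) were higher in MDA-MB-468. NQO1 (-0.76, adjusted p 7.7e-05) and FTL (-1.79, adjusted p 9.3e-05) were higher in ZR75-1. FTH1 was at 0.01 (adjusted p 0.992), and summed with FTH1P3 it was at -0.27 (adjusted p 0.386). HMOX1 was 3.07-fold higher in ZR75-1.

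FPKM scales for length and not for GC content or shared sequence, so an order of genes by level is approximate. By mean FPKM, FTH1, FTL and NQO1 were the 3 highest of the 9 in all 4 groups, and SLC7A11 was the lowest in all 4. In the DMSO samples of ZR75-1, HMOX1 came next and its samples overlapped no neighbour. It was at the 96.4th percentile of the genes tested there and at the 89.1st after PKC412, where its values lay inside the range of TXNRD1. In DMSO samples of MDA-MB-468 it came after SRXN1, at the 79.5th percentile, and overlapped TXNRD1. GCLM and GCLC overlapped each other in each of the 4 groups.

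No regulator of the pathway passed in either response. NFE2L2, which encodes NRF2 itself, measured 7.07 and 16.9 FPKM in DMSO and 59.3, 29.3 and 41.2 in PKC412 in MDA-MB-468. In ZR75-1 the values were 1.93 and 12.9 FPKM in DMSO and 10.9, 3.07 and 18.7 in PKC412. The changes were 1.82 (SE 0.817, adjusted p 0.31) and 0.63 (adjusted p 0.843), and the order of the samples in MDA-MB-468 was again that of the GC slopes. BACH1, the repressor, measured 0.34 and 0.34 FPKM in DMSO and 1.91, 0.67 and 1.18 in PKC412 in MDA-MB-468, and 0.03 to 0.25 in ZR75-1. The MDA-MB-468 change of 0.71 had an adjusted p of 0.178 (0.0385 to 0.759 under the alternatives). NFE2L2 and BACH1 were looked at after their values were seen. KEAP1 measured 151 and 147 FPKM in DMSO and 125, 138 and 132 in PKC412 in MDA-MB-468, against 23.9 to 30.0 over all ZR75-1 samples. It was higher in MDA-MB-468 in DMSO by 2.38 (adjusted p 3.14e-06).

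**Figure D5:**
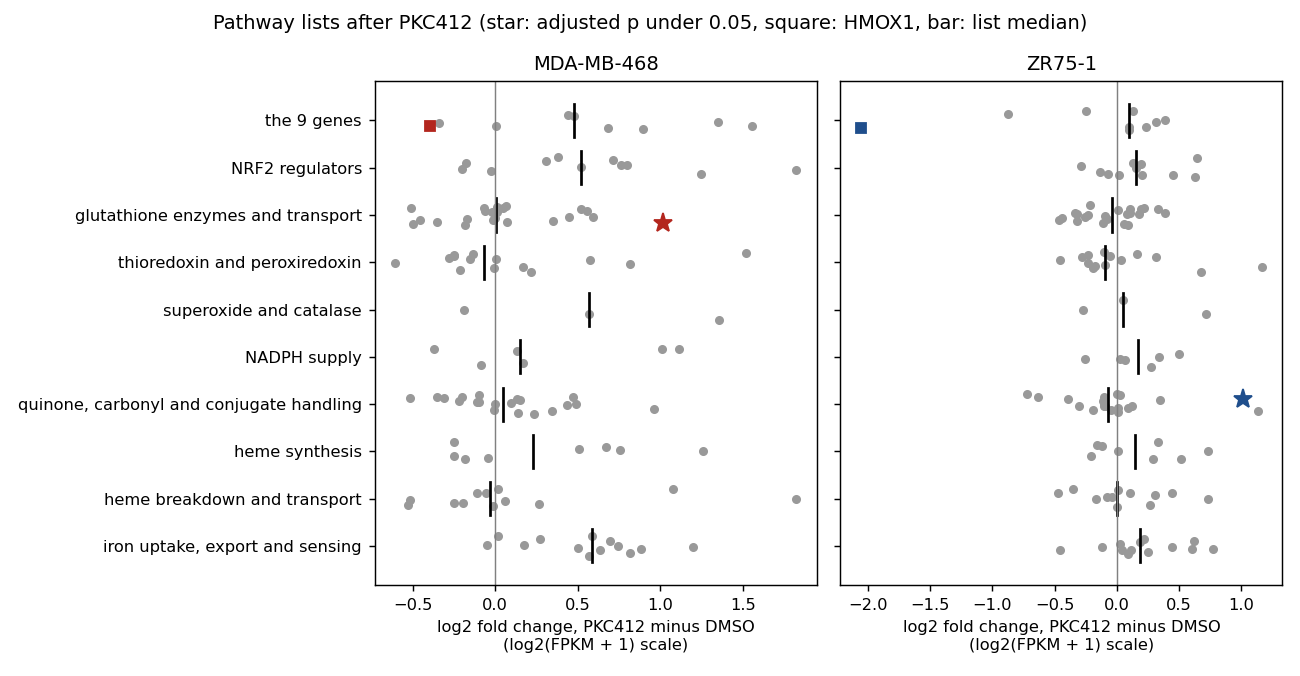
Log2 fold change, PKC412 minus DMSO (x axes), of each tested gene on the 10 lists (y axis) in both lines. Stars passed an adjusted p of 0.05, squares are HMOX1 and bars are list medians. CHAC1 is the star in MDA-MB-468 at 1.02 and AKR1C1 the star in ZR75-1 at 1.02, and HMOX1 in ZR75-1 lies apart from the other genes at -2.06.

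Among 112 further genes of NRF2 control, glutathione, thioredoxin, superoxide, NADPH, conjugation, heme and iron, 109 passed the limit on FPKM and 1 rose in each line with none falling, 0.917% of them in each line against 1.26% of all genes in MDA-MB-468 and 0.946% in ZR75-1. Their median changes were 0.07 in MDA-MB-468 and 0.02 in ZR75-1, against 0.11 and 0.07 over all genes. CHAC1, which degrades glutathione and is known as a target of the ATF4 stress response, rose in MDA-MB-468. It measured 13.5 and 12.4 FPKM in DMSO and 27.9, 25.0 and 28.96 in PKC412 (change 1.02, SE 0.175, adjusted p 0.0397). The ZR75-1 samples measured 3.43 and 3.83 FPKM in DMSO and 2.12, 3.60 and 2.56 in PKC412, which overlap. The difference between these responses was 1.33 and did not pass (adjusted p 0.103). AKR1C1, an aldo-keto reductase that NRF2 is known to turn on, rose in ZR75-1. It measured 17.5 and 15.1 FPKM in DMSO and 38.5, 28.9 and 35.2 in PKC412 (change 1.02, SE 0.14, adjusted p 0.0199). In MDA-MB-468 it measured 214 to 253 FPKM over all 5 samples and the groups overlapped.

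AKR1C1 has near-identical copies whose fragments may be shared, so its level is uncertain. AKR1C2 had a like change in ZR75-1 of 1.14 that did not pass (adjusted p 0.062), and AKR1C3 had -0.10. Both calls were lost after median-ratio rescaling within each line (adjusted p 0.0752 for CHAC1 and 0.07 for AKR1C1). The adjustment for GC content and length ended the call of AKR1C1 (0.72, adjusted p 0.401) and kept that of CHAC1 (1.25, adjusted p 0.0061). Leaving out single samples ended the call in 8 of 10 cases for CHAC1, with an adjusted p of 0.0145 to 0.237, and in 7 of 10 for AKR1C1, with 0.00769 to 0.0756.

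By list, 1 of 22 glutathione genes passed in MDA-MB-468 (CHAC1) and 1 of 20 genes of quinone, carbonyl and conjugate handling in ZR75-1 (AKR1C1). No gene passed in either line among the 11 tested regulators, 14 thioredoxin and peroxiredoxin genes, 3 superoxide and catalase genes, 6 NADPH genes, 8 heme synthesis genes, 12 heme breakdown and transport genes or 13 iron genes. The iron list had the highest median change in MDA-MB-468, 0.58, with 12 of 13 genes positive, against a median of 0.11 and 10446 of 16071 genes positive over all genes tested. It includes NCOA4, the receptor that delivers ferritin for degradation, which measured 8.13 and 14.4 FPKM in DMSO and 38.2, 17.8 and 26.1 in PKC412 there, the order of the GC slopes. Apart from PCBP1 (55.2% GC) and STEAP3 (56.9%), the tested genes of the iron list have a GC content at or below the median of 50.1%. A change of this list by the drug and a change through the slope cannot be told apart in MDA-MB-468. ALAS1, which opens heme synthesis, measured 9.57 and 12.2 FPKM in DMSO and 19.2, 15.9 and 18.4 in PKC412 in MDA-MB-468, and 9.52 and 15.7 against 16.9, 17.8 and 19.4 in ZR75-1. Its treated samples were above the controls in both lines, as for 39.6% of all genes in MDA-MB-468 and 14.8% in ZR75-1. Neither change passed (adjusted p 0.203 and 0.407), and the order of the MDA-MB-468 samples by ALAS1 was again that of the GC slopes. BLVRB, a biliverdin reductase, went the other way in mean level, with 318 and 258 FPKM in DMSO and 175, 233 and 196 in PKC412 in MDA-MB-468 (adjusted p 0.345). Its GC content is 63.3%, and the order of these samples by BLVRB, from high to low, was that of their GC slopes from high to low.

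Between lines, 51 of the 109 differed in DMSO, 29 higher in MDA-MB-468 and 22 higher in ZR75-1, a share of 46.8% against 42.4% of all genes. Wide gaps were seen in both directions. GPX1, a glutathione peroxidase, had 322 and 432 FPKM in MDA-MB-468 DMSO samples and 3.83 and 5.94 in those of ZR75-1, and AKR1B1 had 444 and 454 against 9.60 and 9.85. HMOX2 went the other way, with 0.48 and 0.64 FPKM in MDA-MB-468 DMSO samples and 67.2 and 59.0 in those of ZR75-1.

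The genes whose levels were most like those of HMOX1 over the 10 samples, by Pearson correlation of log2(FPKM + 1) among 11143 genes with a mean FPKM above 1, were FAM101A (0.986), HEY2 (0.973), FBXL18 (0.968), LOC100134229 (0.961) and ADORA2A (0.959). The samples fall into 2 lines, and a gene that differs between them is placed high or low for that alone. FAM101A measured 4.95 and 4.53 FPKM in ZR75-1 in DMSO and 0.66 to 0.79 in PKC412, and at most 0.0539 in MDA-MB-468. Of the other 8 genes of the set, FTL had the highest correlation with HMOX1, 0.866 (rank 329), followed by NQO1 at 0.777 (rank 1212). FTH1 was at 0.575, TXNRD1 at 0.456, GCLM at -0.774, GCLC at -0.782 and SRXN1 at -0.851, and SLC7A11 was below the limit on the mean.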

How the data were processed

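RNA of 10 samples was sequenced by the authors on a HiSeq2000 from TruSeq libraries. The authors deposited FPKM values per gene symbol, made with an in-house pipeline. The submitters' processing notes name hg19, CASAVA 1.82 and TopHat2, and the annotation is not given in the sources used here. Each table has 23426 symbols, 3193 of them at 0 in every sample. Groups came from the labels. The 1 μM dose is that of the labels and methods, while some figure legends of the study give another dose.

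log2(FPKM + 1) was tested with limma 3.58.1 in R 4.3.3, with a mean per group of line and agent (4 groups, 6 residual degrees of freedom) and a trended eBayes. The 16071 genes tested had a group mean over 0.1 FPKM, and Benjamini-Hochberg values under 0.05 were called. The scripts were tested on simulated data. GC content and transcript length came from GENCODE release 29 by symbol (20638 symbols, 88.1%). The adjustment divided out cubic curves of GC content and of log2 length (degree 3), fitted per sample within each line over genes above 1 FPKM. It can also remove a change by the drug that runs along GC content. Promoter windows came from RefSeq. Python 3.11.15 with pandas 2.3.3 and numpy 2.4.6 was used for the rest.

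The members and gene lists were chosen with earlier results of these data known. Genes named were the 9 members, the 5 genes most like HMOX1, and copies of members. From the other lists came genes that passed in either line or had the 4 highest mean FPKM of a list (not all are named). Outside this rule, NFE2L2, BACH1 and HMOX2 were added after their values were seen. AKR1C2 and AKR1C3 were added as copies of AKR1C1, and STEAP3 for its GC content. Alternatives were pseudocounts of 0.1 and 0.5, other FPKM limits, median-ratio rescaling, a replicate block, each line alone, no trend, and each sample left out. Added after the data were seen were the adjustment for GC content and length, alone and with the block, FTH1 summed with FTH1P3, and a fit without the 2 ZR75-1 samples of highest GC slope.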

Additional observations from a re-analysis of the deposited data

Results flagged for a closer look

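FTH1 was singled out because every PKC412 sample was above both controls in MDA-MB-468 and every PKC412 sample was below both controls in ZR75-1. The response in MDA-MB-468 minus that in ZR75-1 was 2.23 on the log2 scale (SE 0.645), and limma's test of this difference did not pass (adjusted p 0.391). The 3 samples in which FTH1 took 48.2% to 49.7% of FTH1 plus FTH1P3 were both MDA-MB-468 controls and 1 treated ZR75-1 sample. With the FPKM of both genes summed, with no weight for length, the difference was 1.16 (adjusted p 0.544). Without that ZR75-1 sample, PKC412 replicate 1, the difference for FTH1 alone was 1.71. The part of the pseudogene in this difference was not tested further.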

How the results depend on the processing

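Values are log2 fold changes or counts of calls in limma. Of 1087 single-gene values under other settings, 975 kept direction and side of the threshold, 34 lost a call, 10 gained one, 14 untested values moved by more than the replicate spread and 54 reversed, none (0) of the reversed ones past the threshold at first. HMOX1 in ZR75-1 stayed between -2.19 and -1.97. Counts of called members leave out HMOX1 in every comparison that uses ZR75-1, where it was not tested. So counted, the number of called members was 0 in both responses and their difference under every alternative but 1. That was 1 in MDA-MB-468 (HMOX1) with median-ratio rescaling within each line. Between lines in DMSO it was 2 to 6, and in PKC412 5 to 6, with 1 sample left out.

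The labels number the replicates and do not say whether same-numbered samples are paired. The correlation of same-numbered deviations from group means was -0.688 and -0.605 in MDA-MB-468 and 0.0774 and -0.621 in ZR75-1 over 7685 genes. With 2 controls per line, the deviations of these controls mirror each other, so the correlations cannot decide whether the samples are paired. The fit with the replicate block left 2 residual degrees of freedom and called 0 of all genes in each response (lowest adjusted p 0.0677 and 0.0623; 703 and 589 at an unadjusted p under 0.05). With the block the ZR75-1 changes were -0.076 for GCLM, -0.16 for GCLC, -0.019 for TXNRD1 and -0.042 for SLC7A11. The line differences have no blocked fit.

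Calls among the other pathway genes (1 in each line) were 0 in MDA-MB-468 with pseudocounts of 0.1 and 0.5, with either rescaling and with the block, alone or with the GC adjustment. They were 2 with no FPKM limit, with no trend and without the 2 ZR75-1 libraries of highest GC slope, and 7 with the GC adjustment. In ZR75-1 they were 0 with the block, alone or with the GC adjustment, and with each line alone, and 2 without those libraries. With 1 sample left out they ran from 0 to 2 in each line.

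Reversals by setting were as follows. Rescaling over all samples gave -0.12 for NQO1 in MDA-MB-468, -0.013 for NQO1 in ZR75-1 and -0.19 for FTH1 between lines in PKC412. Rescaling within lines gave -0.15 and -0.028 for NQO1. The GC adjustment gave -0.41 for NQO1, -0.084 for TXNRD1 and 0.0088 for FTL in MDA-MB-468. In ZR75-1 it gave -0.14 for NQO1, -0.038 for GCLC and -0.021 for SLC7A11, and in the difference of responses -0.17 for TXNRD1 and 0.095 for FTL. Together with the block it gave -0.41 for NQO1, -0.083 for TXNRD1 and 0.026 for FTL in MDA-MB-468. In ZR75-1 that fit gave -0.14 for GCLC, -0.059 for TXNRD1 and -0.023 for SLC7A11, and in the difference -0.024 for TXNRD1 and 0.095 for FTL. Without the 2 ZR75-1 libraries of highest GC slope, GCLM was at -0.075 and GCLC at -0.14 in ZR75-1, and SLC7A11 between lines in PKC412 at -0.0069. FTH1 summed with FTH1P3 was at -0.27 there.

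With 1 sample left out the ranges that crossed 0 were -0.028 to 0.043 for NQO1 in MDA-MB-468. In ZR75-1 they were -0.38 to 0.85 for GCLM, -0.42 to 0.62 for GCLC, -0.30 to 1.07 for TXNRD1, -0.045 to 0.69 for SRXN1, -0.052 to 0.44 for SLC7A11 and -0.49 to 1.75 for NFE2L2. For the difference of responses they were -0.63 to 0.74 for TXNRD1, -0.21 to 0.52 for SRXN1 and -0.27 to 0.092 for FTL. Between lines in PKC412 they were -0.0069 to 0.48 for SLC7A11 and -0.51 to 0.36 for FTH1. The cause of these shifts was not tested.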
